A study of Mus musculus with 10 samples.

Results

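Transcripts of the 8 genes *Pbrm1*, *Brd7*, *Brd9*, *Bicra*, *Bicral*, *Bcl7a*, *Bcl7b* and *Bcl7c* were examined in the neonatal mouse brain. They encode SWI/SNF (BAF) chromatin remodeler subunits that are specific to the PBAF form (2 genes) or the ncBAF form (3 genes), or that belong to the BCL7 family (3 genes). The genes were taken by symbol, and all 8 were found among the 18444 genes of the table. The libraries came from whole brains of male C57BL/6N pups at postnatal day 3. There were 5 *Arid1b* heterozygotes (HT) and 5 wild-type pups (WT), with 1 poly-A-selected mRNA library per mouse. Each HT pup carried, in every cell, 1 *Arid1b* allele in which CRISPR/Cas9 editing had deleted sequence at exon 5 and left a short insertion, a protein-truncating change. All HT mice descend from a single edited line, bred by crossing heterozygous males to WT C57BL/6N females, and the labels name no treatment.

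SWI/SNF complexes use the energy of ATP to slide or evict nucleosomes, and mammalian cells assemble them in several forms. Canonical BAF is built around ARID1A or ARID1B. PBAF carries ARID2, PBRM1, BRD7 and PHF10 in their place, and non-canonical BAF (ncBAF) carries BRD9 with BICRA or BICRAL and lacks an ARID subunit. The BCL7 proteins associate with the ATPase module and are found in every form. ARID1B is therefore absent from PBAF and ncBAF, and the comparison asks whether transcripts of these sister complexes, and of the shared BCL7 subunits, differed when 1 *Arid1b* allele was edited.

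The edited gene was checked first. *Arid1b* averaged 3335 ± 203 normalized read counts in the WT brains and 2101 ± 343 in the HT brains (SD, n = 5 each), and no HT library reached the lowest WT library. Its log2 fold change was -0.68 ± 0.11 (SE; limma adjusted p 0.390) with all libraries and -0.57 ± 0.050 (adjusted p 2.52e-04) without HT 4. Totals were 27.2 M to 29.03 M normalized counts per library (M, 1000000), and all 31 markers of neurons, glia, vessels, cycling cells, blood and choroid plexus were present in the table. HT 4 stood apart from the other 9 libraries. Over genes, its log2 values lay a median of 0.209 from the mean of all libraries, and those of the other libraries 0.0772 to 0.108, so the differences of the 8 genes between genotypes are given with and without it. The summed marker levels of HT and WT overlapped for 7 of 8 cell type lists. Choroid plexus was the exception, with 6354 to 9162 counts in HT and 9704 to 13232 in WT over 3 markers. All 3 were lower in HT, 2 of them with an unadjusted p under 0.05 in limma, and HT 4 (8924 counts) was at neither end of the HT range. The third marker called came from the 4 cycling-cell markers, which were all lower in HT with overlapping sums of 2560 to 4335 and 3429 to 4995 in WT. The 4 microglia markers were also all lower in HT, and the 4 erythroid (blood) markers were all higher, with none called in either list. HT 4 had the lowest HT sum for neurons (156648 counts, WT 161666 to 169304). Its sum was the highest of HT for astrocytes (36749, WT 27939 to 33005) and the oligodendrocyte lineage (9126, WT 7012 to 8301). The same held for endothelium (3143, WT 2602 to 2766) and cycling cells (4335). For microglia and erythroid cells HT 4 was at neither end of the HT range. The part of these cell types in the values of the 8 genes was not tested.

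All 8 genes were detected in every library, at a mean of 369 (*Bcl7b*) to 3759 (*Bcl7a*) normalized counts. A count rises with transcript length, so levels were compared between genes only per kilobase (kb) of the longest coding transcript. On this scale *Bcl7c* was highest in WT at 2621 ± 219 counts per kb (SD, n = 5), above 96.9% of 17008 genes. *Brd9*, the bromodomain subunit of ncBAF, followed at 1119 ± 60.9, and *Bcl7a* stood at 808 ± 24.0. *Bcl7c* lay above *Brd9*, and *Brd9* above *Bcl7a*, in 10 of 10 libraries. The PBAF genes *Brd7* (474 ± 40.7 counts per kb) and *Pbrm1* (468 ± 38.5) had overlapping WT ranges and did not differ beyond their spread. The alternative ncBAF partners were lower, with *Bicral* at 253 ± 24.0 counts per kb and *Bicra* at 213 ± 12.3, and *Bicral* was the higher in 10 of 10 libraries. *Bcl7b* (212 ± 16.1 counts per kb) could not be separated from *Bicra* and was higher in 3 of 10 libraries.

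The order rested on the length used. By the median length of the coding transcripts *Bcl7c* (3329 counts per kb) and *Brd9* (1546) again came first, but *Pbrm1* (739) lay above *Brd7* (474) with no overlap in WT and in 9 of 10 libraries. On that scale *Bcl7b* (374) lay above *Bicra* (225) in 10 of 10 libraries, and *Brd7* and *Bicral* (451) overlapped. With all annotated exons joined, *Pbrm1* (418 counts per kb), *Bcl7c* (411), *Bcl7a* (402) and *Brd9* (391) had overlapping ranges between neighbors and could not be ordered. The longest coding transcript of *Bcl7c* has 1132 bases, and its joined exons have 7222. Its WT level lay above 94.7% of genes by the median length and above 79.9% by joined exons, against 96.9% by the longest transcript. *Bcl7b* and *Bicra* took the last places by each of the 3 lengths.

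**Figure D1:**
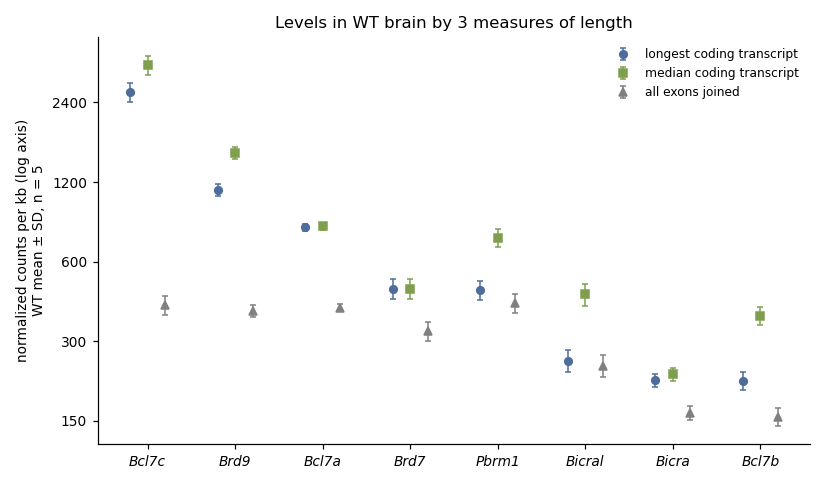
Normalized counts per kb in WT brain (log axis; points, mean; bars, SD; n = 5) for the 8 genes and 3 measures of gene length. *Bcl7c* stands at 2621 by its longest coding transcript and at 411 by all its exons joined, while *Bcl7b* and *Bicra* are lowest by each measure.

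The genes differ in length and base composition, and they lie on 6 chromosomes (GRCm38). *Pbrm1* (ENSMUSG00000042323; chromosome 14, 31019138 to 31121592, plus strand) has the longest transcript of the group at 7907 bases, with 41.8% GC. *Brd7* (ENSMUSG00000031660; chromosome 8, 88331039 to 88362194, minus strand) has 1 coding transcript of 3625 bases and overlaps no other annotated gene. *Brd9* (ENSMUSG00000057649; chromosome 13, 73937811 to 73960895, plus strand) reaches 2430 bases.

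The 2 alternative ncBAF partners have long transcripts. *Bicra* (ENSMUSG00000070808; chromosome 7, 15970672 to 16047921, minus strand) reaches 5975 bases and *Bicral* (ENSMUSG00000036568; chromosome 17, 46798120 to 46858482, minus strand) 6575 bases. *Bicral* shares its chromosome with the edited gene *Arid1b*, which lies at 4994332 to 5347656.

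The BCL7 genes run from long to short. *Bcl7a* (ENSMUSG00000029438; chromosome 5, 123343834 to 123374992, plus strand) reaches 4718 bases and *Bcl7b* (ENSMUSG00000029681; chromosome 5, 135168283 to 135181855, plus strand) 1758 bases. *Bcl7c* (ENSMUSG00000030814; chromosome 7, 127661456 to 127708933, minus strand) is the shortest and the richest in GC, at 67.7%. No 31-base word of a transcript was shared between any of the 8 genes, and 0.00% (*Bicral*) to 4.84% (*Bcl7c*) of the words of each gene occurred in some other gene. *Pbrm1* overlaps 4 genes on the opposite strand, *Bcl7c* 2, and *Brd9*, *Bicra*, *Bicral* and *Bcl7a* 1 each. *Bcl7a* also overlaps 2 genes on its own strand, and *Bcl7b*, like *Brd7*, overlaps none. Whether strand was used in quantification is not given in the sources used here.

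HT was then compared with WT. Of the 8 genes, 7 had a lower mean log2 value in HT (53.6% of all genes were lower) and 1, *Brd7*, a higher one. No gene had HT and WT libraries that failed to overlap (0 of 8, against 0.629% of all 17020 genes tested). In a limma fit across all genes, 0 of 8 had an adjusted p under 0.05 (0% of all genes) and 1 of 8, *Brd7*, had an unadjusted p under 0.05 (3.41% of all genes, and 1.47% with the higher level in HT). The median log2 fold change of the 8 genes was -0.031, and of all genes -0.0074. These directions turned with 1 library. Without HT 4, 6 of 8 genes were higher and 2 lower in HT (50.4% of all genes were lower), with a median of 0.036 against -0.00081 for all genes. Again 0 of 8 passed the adjusted threshold (0.0118% of all genes), 1 had an unadjusted p under 0.05 (8.4% of all genes, and 4.69% with the higher level in HT) and 0 of 8 had groups that did not overlap (2.96% of all genes). As these are bulk brains, fewer cells of a type and less RNA per cell cannot be told apart.

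**Figure D2:**
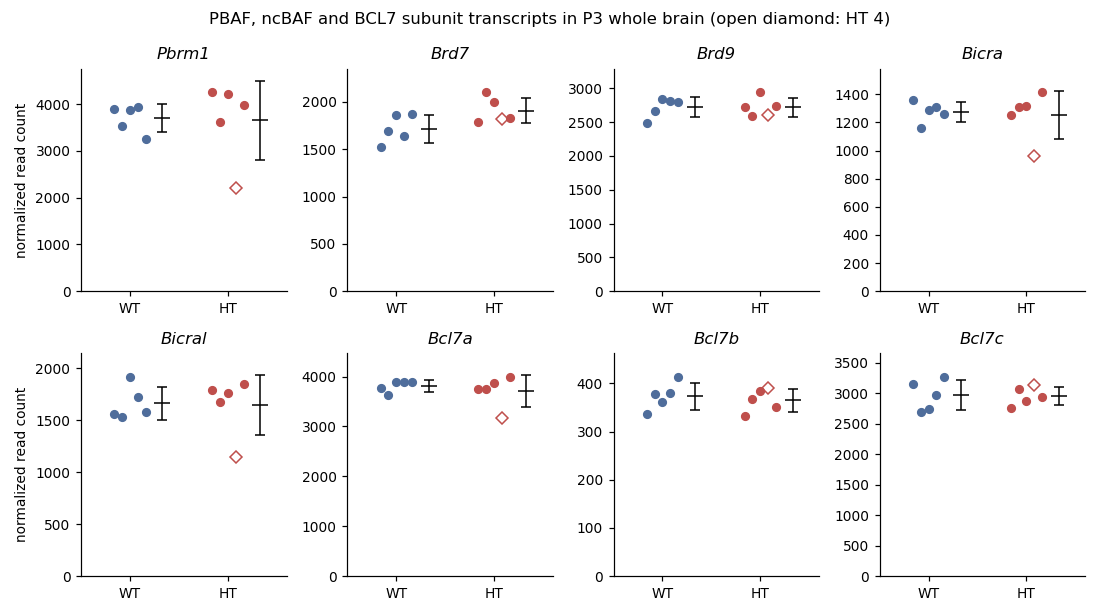
Normalized read counts of the 8 genes in each library (axes start at 0; points, libraries; horizontal ticks and bars, mean ± SD, n = 5 per group; open diamond, HT 4). HT 4 lies below every other library for *Pbrm1* (2204), *Bicral* (1143), *Bicra* (963) and *Bcl7a* (3168), and the groups overlap in all 8 panels.

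In PBAF, *Brd7* encodes a bromodomain protein that reads acetylated histones and also binds p53. Its counts were 1787, 2101, 1995, 1822 and 1834 in HT 1 to HT 5. In WT 1 to WT 5 they were 1522, 1692, 1860, 1644 and 1869. All 5 HT libraries lay above the WT mean of 1717, but 2 WT libraries lay above 3 of the HT libraries. The HT mean of 1908 ± 135 (SD, n = 5) was 111% of the WT mean of 1717 ± 148. The log2 fold change was 0.15 ± 0.069 (SE), with a 95% interval from 0.0042 to 0.30, or 0.295% to 23.3% above WT. The limma p was 0.0447 unadjusted and 1.00 adjusted, and the two-sided exact permutation p was 0.0794. The call at an unadjusted p under 0.05 did not hold without HT 2, HT 3, WT 1, WT 2 or WT 4, which is 5 of the 10 libraries left out in turn. Without these the p ran from 0.0761 to 0.127.

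The difference in *Brd7* did not rest on HT 4. Without that library its log2 fold change was 0.17 ± 0.067 (SE), with an unadjusted limma p of 0.0243, an adjusted p of 0.533 and an exact permutation p of 0.0794. The lowest log2 fold change over all alternatives was 0.11, without WT 1, and the highest was 0.19, with sample weights. Its sign was positive in every fit.

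*Pbrm1* encodes polybromo-1, the large subunit with a series of bromodomains that characterizes PBAF. Its counts were 4251, 3618, 4222, 2204 and 3982 in HT 1 to HT 5. In WT 1 to WT 5 they were 3905, 3525, 3883, 3946 and 3249. HT 4 lay far below all the other libraries, and 3 of the other 4 HT libraries lay above every WT library. The log2 fold change was -0.053 ± 0.16 (SE) with all libraries and 0.12 ± 0.064 (SE) without HT 4, and the limma p was 0.739 and 0.0840 respectively (adjusted 1.00 and 0.649). The exact permutation p was 0.929 with all libraries and 0.175 without HT 4. With all libraries the 95% interval was the widest of the 8 genes, a change of -23.9% to 22.05%.

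The other PBAF-specific genes, *Arid2* and *Phf10*, were named for their place in the complex. *Arid2*, which encodes the subunit that stands in for ARID1A or ARID1B, averaged 2759 ± 154 counts in WT and 2726 ± 344 in HT (SD, n = 5). *Phf10*, which encodes a PHD finger subunit, averaged 2068 ± 64.2 counts in WT and 2086 ± 104 in HT. Their log2 fold changes were -0.025 ± 0.080 and 0.012 ± 0.049 (SE), and became 0.042 and 0.038 without HT 4.

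In ncBAF, *Brd9* encodes the bromodomain subunit that defines the complex. Its counts ran from 2587 to 2939 in HT and from 2483 to 2835 in WT, with means of 2718 ± 141 and 2720 ± 148 (SD, n = 5 each). The ranges overlapped, and the HT range was the higher at both ends. The log2 fold change was -4.6e-04 ± 0.054 (SE), and its 95% interval, the narrowest of the 8 genes, spanned changes of -7.81% to 8.41%. The limma p was 0.993 (adjusted 1.00) and became 0.774 (adjusted 0.967) without HT 4, where the log2 fold change was 0.015.

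*Bicral* and *Bicra* encode the paired scaffolds, 1 of which is present in each ncBAF complex. *Bicral* had 1793, 1674, 1763, 1143 and 1853 counts in HT 1 to HT 5 and 1558, 1532, 1912, 1718 and 1582 in WT 1 to WT 5. *Bicra* had 1253, 1313, 1320, 963 and 1413 counts in HT 1 to HT 5 and 1356, 1159, 1289, 1310 and 1257 in WT 1 to WT 5. In both genes HT 4 was the lowest of the 10 libraries, and the other HT libraries lay among or above the WT libraries. The log2 fold change of *Bicral* was -0.029 ± 0.12 (SE) with all libraries and 0.097 ± 0.063 without HT 4 (limma p 0.810 and 0.150, adjusted 1.00 and 0.727). That of *Bicra* was -0.035 ± 0.091 (SE) and 0.057 ± 0.055 (limma p 0.709 and 0.322, adjusted 1.00 and 0.836).

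Among the shared BCL7 subunits, *Bcl7a* had 3759, 3742, 3877, 3168 and 3984 counts in HT 1 to HT 5. In WT 1 to WT 5 it had 3762, 3634, 3888, 3881 and 3894. Outside HT 4 it was the steadiest of the 8 genes, with a coefficient of variation of 2.98% in WT and 2.94% in the other 4 HT libraries. The log2 fold change was -0.045 ± 0.061 (SE) with all libraries and 0.011 ± 0.038 without HT 4 (limma p 0.477 and 0.776, adjusted 1.00 and 0.968). Without HT 4 the 95% interval spanned changes of -4.71% to 6.54%.

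*Bcl7b*, which lies in the region deleted in Williams syndrome in humans, had the lowest counts, from 332 to 390 in HT and from 336 to 413 in WT. *Bcl7c* ranged from 2762 to 3129 in HT and from 2702 to 3263 in WT. The HT range lay within the WT range for *Bcl7c* and almost within it for *Bcl7b*. Their log2 fold changes were -0.032 ± 0.077 and -0.0041 ± 0.062 (SE), and -0.056 and -0.025 without HT 4. The 95% interval with all libraries spanned changes of -12.9% to 9.83% for *Bcl7b* and of -9.18% to 9.48% for *Bcl7c* (limma adjusted p 1.00 for both).

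**Figure D3:**
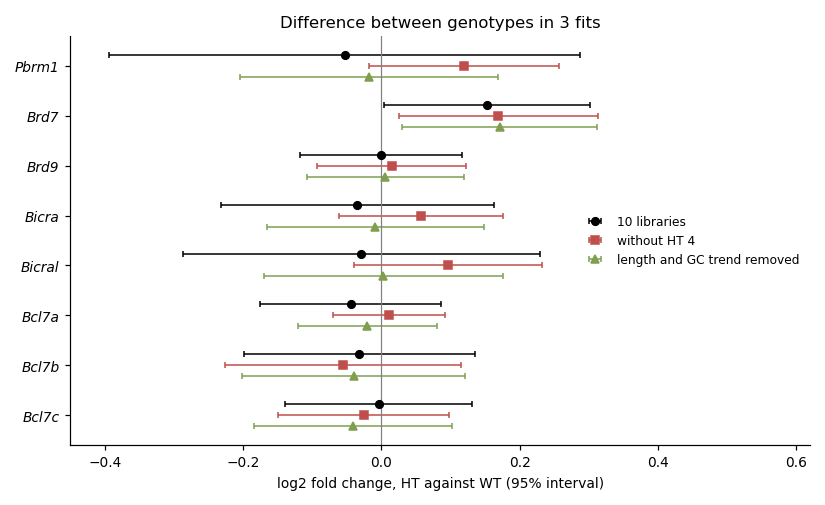
Log2 fold change of HT against WT on the log2(value + 1) scale for the 8 genes, with 95% intervals from limma, in the fit of 10 libraries (black), without HT 4 (red) and with the length and GC trend of each library removed (green). The interval of *Brd7* lies above 0 in the 3 fits before any adjustment for the number of genes, and that of every other gene spans 0.

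HT 4 was compared with the mean of the other 4 HT libraries, gene by gene, on the log2 scale. The deviations ran with transcript length from gene to gene, except between the 2 shortest. *Pbrm1* (7907 bases) deviated by -0.86, *Bicral* (6575) by -0.63, *Bicra* (5975) by -0.46 and *Bcl7a* (4718) by -0.28. *Brd7* (3625) and *Brd9* (2430) deviated by -0.080 and -0.076, and the short *Bcl7b* (1758) and *Bcl7c* (1132) by 0.12 and 0.11. *Pbrm1* in HT 4 was at 54.9% of the mean of the other HT libraries, and only 4.01% of all genes had a deviation as low.

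The same ordering held over all genes, and the 8 genes lay low within it by length alone, with GC content left aside. All genes were put into 10 equal classes by transcript length. The median deviation of HT 4 was 0.32 in the class of shortest transcripts and -0.40 in the class of longest. All 8 genes lay below the median of their own length class, by 0.026 (*Brd7*) to 0.46 (*Pbrm1*). *Pbrm1*, *Bicral* and *Bicra* also lay below the lower quartile of their class, and so by a small margin did *Bcl7c* (0.107 against 0.110). HT 4 was the lowest HT library for 4 of the 8 genes and for 11 of the 19 other SWI/SNF subunit genes, against 34.1% of all genes. It was the highest HT library for 2 of the 8 and for 5 of the 19, against 34.5% of all genes. These counts leave transcript length aside.

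**Figure D4:**
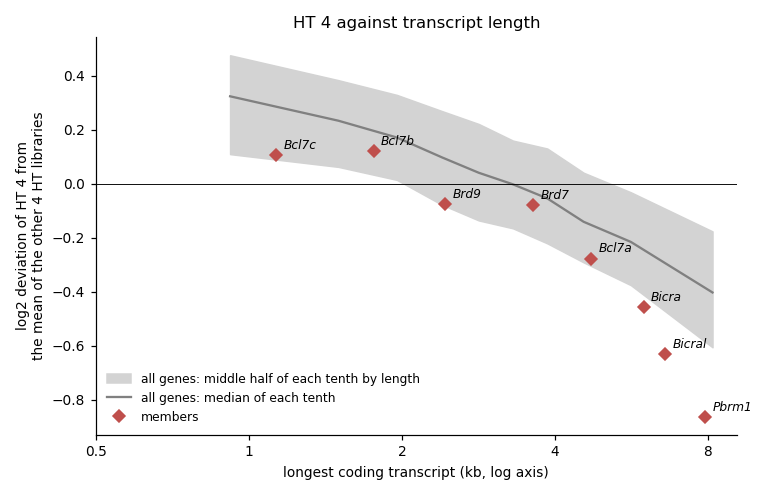
Log2 deviation of HT 4 from the mean of the other 4 HT libraries against the length of the longest coding transcript (log axis; red diamonds, the 8 genes; gray line and band, median and interquartile range of all genes in 10 length classes). The deviation falls from 0.11 in *Bcl7c* to -0.86 in *Pbrm1*, and all 8 genes lie below the median of their length class.

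With the trend on length and GC content removed from each library, the genotype difference came closer to 0 in the 4 genes with the longest transcripts. *Pbrm1* moved to -0.018, *Bicra* to -0.0086, *Bicral* to 0.0030 and *Bcl7a* to -0.020. *Bcl7c* moved away from 0, to -0.041, as did *Bcl7b*, to -0.040. *Brd7* moved to 0.17, with a limma p of 0.0210 (adjusted 0.999). Part of the distance of HT 4 remained: from the gene mean over all libraries, *Pbrm1* deviated by -0.72 in HT 4 before the trend was removed and by -0.35 after. After removal, *Brd7* lay 0.091 above its gene mean in HT 4, and every other member lay below its own.

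A wide spread among HT libraries went with the same library. The coefficient of variation was larger in HT than in WT for 4 of 8 genes with all libraries (69.0% of all genes) and for 0 of 8 without HT 4 (46.3% of all genes). For *Pbrm1* it was 23.3% in HT, 7.29% in HT without HT 4 and 8.22% in WT. In WT, *Pbrm1*, *Bicral* (9.51%), *Brd7* (8.60%) and *Bcl7c* (8.35%) varied more than the median gene of like mean (4.64% to 5.44%). *Brd9* (5.44%) was slightly above its median of 4.89%. *Bcl7a* (2.98%) varied less than its median of 4.61%, as did *Bcl7b* (7.58%, median 8.65%) and, by little, *Bicra* (5.78%, median 5.82%).

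Ratios of alternative subunits were taken within each library, where size factors cancel, and are given without a test. *Brd7* to *Brd9*, the bromodomain pair that tells PBAF from ncBAF, had ratios of counts of 0.656, 0.812, 0.679, 0.700 and 0.670 in HT 1 to HT 5. In WT 1 to WT 5 they were 0.613, 0.635, 0.656, 0.585 and 0.667. In 4 of 5 HT libraries the ratio was above every WT library, and HT 1 lay inside the WT range. The mean log2 difference was 0.15 ± 0.065 (SE), and 0.15 ± 0.079 without HT 4. As *Brd9* had a log2 fold change of -4.6e-04, this ratio restates the difference of *Brd7* and is not a separate observation.

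The other 4 ratios showed wide overlap. *Bicra* to *Bicral* averaged 0.772 ± 0.071 in WT and 0.767 ± 0.052 in HT (SD, n = 5), and was 0.842 in HT 4, where both genes were at their lowest. *Bcl7a* to *Bcl7b* averaged 10.2 ± 0.75 in WT and 10.2 ± 1.31 in HT, with HT 4 the lowest of all libraries at 8.13. *Bcl7a* to *Bcl7c* averaged 1.26 ± 0.15 in HT and 1.29 ± 0.099 in WT, with HT 4 again the lowest at 1.01. *Bcl7b* to *Bcl7c* averaged 0.124 ± 0.0063 in HT and 0.126 ± 0.012 in WT. Their log2 differences between HT and WT, in this order, were -0.0055, -0.013, -0.040 and -0.028 with all libraries. Without HT 4 they were -0.040, 0.067, 0.036 and -0.030, so those with *Bcl7a* changed sign.

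**Figure D5:**
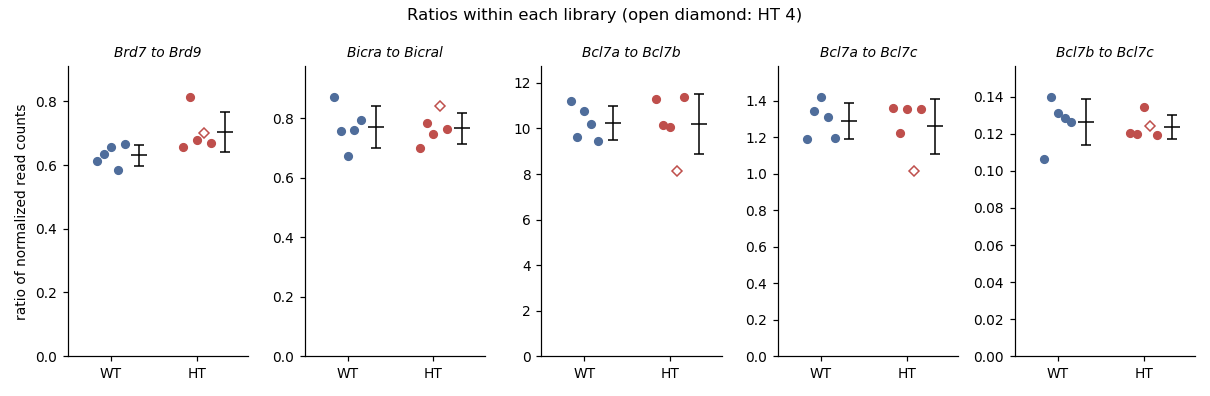
Ratio of normalized read counts of 5 gene pairs within each library (axes start at 0; points, libraries; ticks and bars, mean ± SD, n = 5; open diamond, HT 4). The *Brd7* to *Brd9* ratio is above every WT library in 4 of 5 HT libraries, and HT 4 is lowest for *Bcl7a* to *Bcl7b* and *Bcl7a* to *Bcl7c*.

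The remaining subunit genes of the complexes were counted in the same way. Of 19 other SWI/SNF subunit genes, 6 were higher and 13 lower in HT (median log2 fold change -0.017), with 53.6% of all genes lower. In limma 0 of the 19 had an adjusted p under 0.05 and 0 an unadjusted p under 0.05 (3.41% of all genes). Without HT 4, 12 were higher and 7 lower (median 0.016), with 50.4% of all genes lower. In that fit 1 of the 19 had an unadjusted limma p under 0.05 (8.4% of all genes). The 3 with the smallest p were *Smarcd3*, *Actl6a* and *Ss18*. *Smarcd3*, a variant of the BAF60 subunit, had 3202 ± 145 counts in HT and 2999 ± 53.2 in WT (log2 fold change 0.093, limma p 0.0588, adjusted 1.00, exact permutation p 0.0159), and a log2 fold change of 0.072 (limma p 0.0770, adjusted 0.634) without HT 4. *Actl6a*, the actin-related subunit of progenitors, had 417 ± 74.4 and 468 ± 44.3 (-0.18, limma p 0.134, adjusted 1.00), and was the gene past an unadjusted 0.05 without HT 4 (-0.28, limma p 0.00345, adjusted 0.446). *Ss18* had 971 ± 75.2 and 1007 ± 45.6 (-0.055, limma p 0.399, adjusted 1.00), and a log2 fold change of -0.096 (limma p 0.0973, adjusted 0.666) without HT 4.

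The genes whose profiles over the libraries were most like each of the 8 were found by Pearson's r of deviations from the group means over 10 libraries, among 12826 genes with a mean of at least 100. These values describe the libraries and carry no test, since the genes were picked for them. For the long genes, r with the genes so picked was high with HT 4 and lower without it. Having been picked over 10 libraries, the picked genes can show a lower r over 9 from the picking alone. *Pbrm1* was most like *Camk4* (r 0.991 over 10 libraries, 0.954 over 9) and *Gm43844* (0.989 and 0.959). Of the genes most like *Bicral*, *Nrxn3* had an r of 0.985 over 10 libraries and 0.930 over 9. *Bicra* was most like *Cd47* (0.973 and 0.864) and *Bsn* (0.973 and 0.862), and *Bcl7a* most like *Ambra1* (0.991 and 0.947) and *Pom121* (0.981 and 0.884).

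The genes less touched by HT 4 had other neighbors. *Brd7* was most like *Ap3s1* (r 0.937 over 10 libraries, 0.934 over 9) and *Spock3* (0.929 and 0.972), and *Brd9* most like *Atxn7l2* (0.892 and 0.882) and *Hs1bp3* (0.885 and 0.909). *Bcl7b* was most like *Ralyl* (0.946 and 0.947) and *Gm3752* (0.943 and 0.962). *Bcl7c* was most like *Ncaph2* (0.931 and 0.955) and *Stk11* (0.928 and 0.942), and of the 8 genes it was the only one for which the same 2 genes led without HT 4.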

How the data were processed

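Whole-brain mRNA from 5 HT and 5 WT male pups was sequenced as paired ends from stranded libraries. Per the study's methods, the authors quantified reads with Salmon 1.1.0 on GRCm38 with GC bias correction, imported gene estimates with tximport, and divided them by DESeq2 1.30.1 size factors. The deposited values are thus a signal, a normalized read count per gene and library. They were not whole numbers, so no count model was run. Which annotation release was used, and how low genes were filtered, is not given in the sources used here. The smallest mean was 3.44. Groups came from the sample titles. Symbols, positions and lengths came from GENCODE M21 (GRCm38), which matched 18431 of 18444 genes.

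Values were analyzed as log2(value + 1), which understates changes of low genes, in R 4.3.3 with limma 3.58.1 (trend, robust empirical Bayes, no covariate, two-sided). The 17020 genes with a mean of at least 10 were tested, with Benjamini-Hochberg adjustment over all of them and a threshold of 0.05. The workflow was tested on simulated data, drawn gene by gene with no library set apart and no length trend. Exact permutation tests used the 252 assignments of libraries to groups (126 without HT 4), with a smallest p of 0.00794. The length and GC trend was a loess fit of each library's deviations on log2 length and GC (span 0.4). With 27.2 M to 29.03 M normalized counts per library, precision is given by the spread between libraries, and no counting interval was computed. The members, lists and tests were chosen with earlier results of these data known, so no p adjusted over the members is given. The rule for named genes was all members, *Arid1b*, the 3 other subunit genes with the smallest p and the 2 genes most like each member. *Arid2* and *Phf10* were added after their values were seen. For *Bicral*, 1 of these 2 genes is not reported here.

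The replicate numbers of HT and WT libraries are not tied to litters or batches in the labels. Alternatives were other pseudocounts, filters, scaling, weights, a replicate block and each library left out.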

Additional observations from a re-analysis of the deposited data

Results flagged for a closer look

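A library was looked at again where the distance from the highest or lowest value of its group of 5 to the next value exceeded 0.71 of the group's range. Of 26 groups checked (8 genes and 5 ratios, in HT and in WT), 2 met this, and chance alone gives about 1.3. For *Bicral* the share was 0.749 in HT, with HT 4 at 1143 counts and the other 4 libraries at 1674 to 1853. For the *Brd7* to *Brd9* ratio it was 0.719 in HT, with HT 2 at 0.812 and the others at 0.656 to 0.700.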

How the results depend on the processing

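With all 10 libraries, 0 genes had an adjusted p under 0.05 in limma and 580 an unadjusted p under 0.05. Leaving out single libraries moved the first count from 0 to 2 and the second from 447 (without WT 3) to 1429 (without HT 4). The count of the 8 genes with an unadjusted p under 0.05 moved from 0 to 1, and that of the 19 other subunit genes from 0 to 1. The genes whose groups did not overlap ran from 156 (without HT 5) to 504 (without HT 4), against 107 with all. Groups of fewer libraries fail to overlap more readily, so the count with all libraries is not on the same footing. Sample weights gave 2 adjusted calls, 1280 unadjusted calls and, among the other subunit genes, 1 unadjusted call. Removing the length and GC trend gave 2 adjusted calls, and removing it without HT 4, a setting chosen after seeing the data, gave 3, 1346 and 4. The replicate block left 0 adjusted and 558 unadjusted calls, and the unadjusted p of *Brd7* was then 0.0377. Same-numbered HT and WT libraries correlated at -0.104 (HT 4) and 0.0815 to 0.0926 (the other 4 pairs). As 0 of 5 exceeded the 0.1 set for pairing and the labels name no shared litter or batch, the numbers were not taken as pairs, although 6 of 10 libraries were closest to their own number, a hint from the data of shared deviations.

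Signs of small differences turned. With sample weights the log2 fold changes were 0.061 (*Pbrm1*), 0.017 (*Brd9*), 0.035 (*Bicra*), 0.062 (*Bicral*) and 0.0013 (*Bcl7a*). With the trend removed they were 0.0055 (*Brd9*) and 0.0030 (*Bicral*), and with the trend removed and without HT 4 they were 0.068 (*Pbrm1*), 0.034 (*Brd9*), 0.066 (*Bicra*), 0.080 (*Bicral*), 0.011 (*Bcl7a*) and 0.0088 (*Bcl7c*). With each library left out in turn they ran from -0.12 to 0.12 (*Pbrm1*), -0.033 to 0.017 (*Brd9*), -0.081 to 0.057 (*Bicra*), -0.077 to 0.097 (*Bicral*), -0.072 to 0.011 (*Bcl7a*), -0.069 to 0.0050 (*Bcl7b*), -0.037 to 0.031 (*Bcl7c*) and, with no change of sign, 0.11 to 0.18 (*Brd7*). The adjusted p of *Brd7* ran from 0.533 to 1.00 over its alternatives. The cause of these changes was not tested. With 10 libraries the 95% interval, before adjustment, reached 0.12 (*Brd9*) to 0.34 (*Pbrm1*) to either side on the log2 scale. Differences smaller than these widths could be missed, but the widths are not a detection limit, and none was computed. Differences larger than these widths could also miss the adjusted threshold, as *Arid1b* did at a log2 fold change of -0.68 (limma adjusted p 0.390).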
